A study of Mus musculus with 12 samples.

Results

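Inhibitory checkpoint receptors are surface proteins that dampen the activation of lymphocytes when they bind a ligand on a neighbouring cell. Many carry tyrosine motifs in their tails that recruit phosphatases, and others compete with an activating receptor for a shared ligand. Group 2 innate lymphoid cells (ILC2s) have no rearranged antigen receptor, respond to the alarmin IL-33 through its receptor ST2, and are known to carry several of these proteins, among them PD-1, which restrains them, and KLRG1, which is used as a marker of mature and activated ILC2s. The receptor genes described here are Pdcd1, Ctla4, Tigit, Lag3, Havcr2, Cd160, Btla, Klrg1, Cd200r1 and Cd96. These genes were chosen by name as members of this class, with earlier results of these data known. They are 10 of the 24346 gene symbols with deposited values, and 10 of the 11444 genes tested. Of these receptors, 9 had a mean of at least 0.5 FPKM over the libraries, and Lag3, which did not, was tested all the same. FPKM, fragments scaled by transcript length and by the mapped fragments of the library, is a level that allows for transcript length, so levels are compared between genes only on this scale.

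RNA was sequenced from 12 libraries of sorted lung ILC2s, 3 for each combination of genotype and treatment. WT mice were of the C57BL/6 strain by the labels, which the methods give as C57BL/6J, and the mutant mice, labelled 6DKO, lacked Sema6d in every cell type and came from a line made in an earlier study on the same background. Mice were 7 to 12 weeks old and received PBS or IL-33 by the nose for 3 days, at 50 ng per the labels, although the study's methods state a higher dose. The sort was for CD45+ Lin− Thy1.2+ ST2+ cells, and the study's antibodies to other lineages included those to CD3ε, CD4, CD5, CD8α, CD11c and NK1.1. The labels name a SMART-Seq HT and Nextera library, whereas the methods name a TruSeq Stranded kit, so it is not settled whether the values keep strand. The design compares IL-33 with PBS in each genotype and averaged over both, 6DKO with WT under each treatment, and the response to IL-33 between the genotypes (the interaction).

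The targeted gene, Sema6d (chromosome 2, positions 124089969 to 124667770 of GRCm38, plus strand), was measured in every library. Its level was 27.5, 46.1 and 37.5 FPKM in the WT PBS libraries and 29.0, 22.9 and 19.8 FPKM in the 6DKO PBS libraries. Under IL-33 it was 19.7, 35.5 and 28.7 FPKM in WT and 15.4, 13.6 and 13.8 FPKM in 6DKO. The 6DKO libraries were thus lower without overlap under IL-33 and overlapped WT under PBS. The labels do not state which exons were deleted, so a level of the whole gene may include reads from outside the deleted part and is a weak check of genotype.

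FPKM values carry no totals, but the steps of low values gave each library's depth relative to WT IL-33 replicate 3, which ranged from 0.739 to 0.998 in the PBS libraries and from 0.968 to 1.39 in the IL-33 libraries. The PBS libraries had 7696 to 9287 genes above 1 FPKM, and the IL-33 libraries 9917 to 10081. Replicates within a group correlated across genes at r of 0.762 to 0.819 under PBS and 0.934 to 0.951 under IL-33, as a description over genes that are not independent. Among the 2011 genes with a mean of 3 to 7 FPKM over all 12 libraries, each PBS library listed 231 to 614 at 0 and each IL-33 library 34 to 70, and among 1970 genes chosen by their mean under PBS instead, 214 to 596 and 52 to 92. A value listed at 0 is reported as such and not read as absence, and the part of this difference between PBS and IL-33 libraries in the receptor results was not tested. In bulk libraries, fewer cells with a transcript and less of it per cell cannot be told apart.

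The ILC2 label was checked with 15 marker genes, of which 13 to 15 were above 1 FPKM in every library, with summed levels from 6174 FPKM in 6DKO PBS replicate 2 to 9322 FPKM in 6DKO PBS replicate 1. The most abundant of them was Id2, except in 6DKO PBS replicate 3, where it was Areg at 2075 FPKM. Hey1 was listed at 0 in 6DKO PBS replicate 1, where Il13 was at 0.436 FPKM, and Hey1 was at 0.142 FPKM in 6DKO PBS replicate 2. Of 10 T cell markers, 3 to 5 were above 1 FPKM, with sums of 219 to 514 FPKM that Cd3g led in every library at 190 to 480 FPKM. The coreceptor Cd4 was listed at 0 in all 12 libraries, Cd8a did not exceed 0.393 FPKM and Cd5 did not exceed 0.311 FPKM, while Cd3e ran from 0 to 9.81 FPKM, Cd6 from 0 to 24.7 FPKM and Cd247 from 3.03 to 32.1 FPKM. Trat1 was listed at 0 in all 6 PBS libraries and was 1.84 to 27.3 FPKM in the IL-33 libraries. Of 5 regulatory T cell markers, summing to 3.08 to 28.4 FPKM with Ikzf2 leading, Foxp3 was listed at 0 in every library but 6DKO IL-33 replicate 3, where it was 0.0679 FPKM.

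One library stood apart in markers of natural killer (NK) cells and ILC1s. In 6DKO PBS replicate 2, 10 of 10 such genes were above 1 FPKM and summed to 1479 FPKM, led by Nkg7 at 658 FPKM and Gzma at 653 FPKM, with Ncr1 at 58.9 FPKM and Eomes at 5.47 FPKM. The sums were 26.4, 0 and 30.7 FPKM in the WT PBS libraries, and 96.7 and 55.1 FPKM in 6DKO PBS replicates 1 and 3. They were 90.4, 67.1 and 84.6 FPKM in the WT IL-33 libraries and 152, 141 and 61.2 FPKM in the 6DKO IL-33 libraries. Outside that library Nkg7 led in most, Ncr1 was listed at 0 except in 6DKO IL-33 replicate 1 (2.61 FPKM), and Eomes at 0 except in the same library (0.0316 FPKM). NK cells express Cd160, Tigit, Klrg1 and Cd96 among the receptors studied, so tests of single receptors that include 6DKO PBS replicate 2 are given without it as well.

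Macrophage markers, 11 genes, summed to 428 FPKM in 6DKO IL-33 replicate 2, where Chil3 led at 394 FPKM, to 183 FPKM in 6DKO PBS replicate 2, where Lyz2 led at 112 FPKM, to 146 FPKM in 6DKO IL-33 replicate 3, and to 0.390 to 17.1 FPKM elsewhere. Csf1r did not exceed 0.0718 FPKM and Mertk did not exceed 0.255 FPKM in any library, but other genes of the list were higher. In 6DKO PBS replicate 2, Marco was at 7.28 FPKM, Mrc1 at 6.84 FPKM and C1qc at 6.05 FPKM. In 6DKO IL-33 replicate 2, C1qb was at 5.47 FPKM, Cd68 at 4.15 FPKM and C1qa at 1.59 FPKM. The 8 dendritic cell markers summed to 2.69, 38.2 and 101 FPKM in WT PBS, 189, 59.3 and 127 FPKM in 6DKO PBS, 239, 245 and 473 FPKM in WT IL-33, and 794, 687 and 765 FPKM in 6DKO IL-33. Except in WT PBS replicate 1, where Xcr1 led at 1.09 FPKM, the highest gene in these sums was H2-Ab1 or H2-Aa, class II genes that are also in the list of receptor ligands, while Clec9a was listed at 0 in every library and Flt3 did not exceed 0.213 FPKM. Xcr1 of the same list ran from 0.194 to 10.4 FPKM under PBS and from 4.63 to 11.4 FPKM under IL-33, and Zbtb46 from 0 to 10.3 FPKM and from 2.49 to 10.7 FPKM. Mast cell and basophil markers were nearly all Cpa3, which was at 42.9 to 89.3 FPKM in the PBS libraries and 17.8 to 40.02 FPKM in the IL-33 libraries, without overlap. The epithelial marker Epcam was also apart, at 16.4 to 54.0 FPKM under PBS and 0 to 8.71 FPKM under IL-33, but Sftpc of the same list was listed at 0 in all PBS libraries and ran from 0 to 97.2 FPKM under IL-33, and Cdh1 ran from 0 to 6.78 FPKM and from 2.72 to 6.35 FPKM. The B cell marker Cd79b ran from 0 to 8.90 FPKM and from 2.76 to 26.8 FPKM, with overlap. Other marker lists gave sums of 5.48 to 12.9 FPKM for neutrophils (Cxcr2 leading) and 0 to 40.03 FPKM for eosinophils. For epithelial cells the sums were 7.02 to 101 FPKM, for endothelial cells 1.32 to 23.1 FPKM and for mesenchymal cells 0 to 4.51 FPKM. The highest eosinophil, endothelial and mesenchymal sums, and the highest epithelial sum under PBS (71.8 FPKM), were in 6DKO PBS replicate 2. The part of these markers in the receptor values was not tested.

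Ctla4 competes with the activating receptor CD28 for CD80 and CD86. Under PBS its level was 9.11, 0 and 0 FPKM in WT and 0, 32.8 and 8.37 FPKM in 6DKO. Under IL-33 it was 136, 132 and 200 FPKM in WT (156 ± 38.4, mean ± SD, n = 3) and 176, 143 and 125 FPKM in 6DKO (148 ± 25.8, n = 3). The lowest IL-33 library was above the highest PBS library, which was 6DKO PBS replicate 2, the library with NK cell markers. Among the 510 genes with a mean of 100 to 200 FPKM under IL-33, 3.33% were listed at 0 in at least 3 PBS libraries, as Ctla4 was.

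Tigit binds the nectin-family ligand CD155 and competes for it with the activating receptor CD226. Its PBS levels were 8.54, 0.182 and 0 FPKM for WT and 0.192, 4.14 and 4.22 FPKM for 6DKO. With IL-33 the levels were 20.0, 28.4 and 42.6 FPKM in WT (30.3 ± 11.4, n = 3) and 41.7, 36.3 and 43.2 FPKM in 6DKO (40.4 ± 3.62, n = 3). Every IL-33 library exceeded every PBS library, while the genotypes overlapped under both treatments. The Tigit values were whole multiples of 1 read within 0.03 reads, which gave 39, 1, 0, 1, 22 and 26 reads in the PBS libraries and 172 to 288 reads in the IL-33 libraries.

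Havcr2 encodes TIM-3, which binds galectin-9, CEACAM1 and phosphatidylserine. Among PBS libraries it was listed at 0 in all of WT and in 6DKO replicates 1 and 2, and was 0.0487 FPKM, or 1 read, in 6DKO PBS replicate 3. Under IL-33 its level was 2.55, 6.58 and 5.25 FPKM in WT (4.79 ± 2.05, n = 3) and 3.13, 5.97 and 6.75 FPKM in 6DKO (5.28 ± 1.91, n = 3), from 72 to 149 reads in a library. The treatments did not overlap and the genotypes did. Of the genes with a mean of 3 to 7 FPKM under IL-33, 5.21% were listed at 0 in at least 5 PBS libraries, as Havcr2 was. Lag3, a receptor for MHC class II, was listed at 0 in all PBS libraries and in 6DKO IL-33 replicate 3. In the other IL-33 libraries it was 0.391, 0.371 and 0.749 FPKM in WT and 0.0609 and 0.0703 FPKM in 6DKO, the lowest levels among the receptors under IL-33, with at most 11 reads.

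Pdcd1 encodes PD-1, the receptor for PD-L1 and PD-L2. Its level was 472, 175 and 261 FPKM in WT PBS (303 ± 153, n = 3) and 312, 480 and 418 FPKM in 6DKO PBS (403 ± 84.6, n = 3). After IL-33 it was 367, 415 and 458 FPKM in WT (414 ± 45.3, n = 3) and 480, 466 and 403 FPKM in 6DKO (450 ± 40.7, n = 3). All groups overlapped, and the widest spread was in WT PBS, where replicate 1 was high and replicate 2 low. Klrg1, a lectin-like receptor for cadherins, was at 349, 141 and 309 FPKM in WT PBS (267 ± 110, n = 3) and 498, 371 and 394 FPKM in 6DKO PBS (421 ± 68.0, n = 3). Its levels with IL-33 were 563, 541 and 595 FPKM in WT (566 ± 27.2, n = 3) and 752, 643 and 601 FPKM in 6DKO (665 ± 77.9, n = 3). Klrg1 was higher in each IL-33 library than in any PBS library, and higher in the 6DKO than in the WT libraries of the same treatment, without overlap.

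Cd200r1, the receptor for CD200, was at 229, 232 and 187 FPKM in WT PBS (216 ± 25.2, n = 3) and 238, 170 and 190 FPKM in 6DKO PBS (199 ± 35.1, n = 3). Under IL-33 its level was 81.5, 107 and 75.1 FPKM in WT (87.9 ± 17.0, n = 3) and 94.8, 99.8 and 96.7 FPKM in 6DKO (97.1 ± 2.54, n = 3). It was the only receptor of the list whose IL-33 libraries all lay below its PBS libraries. Cd96, which like Tigit binds CD155, was at 97.4, 92.1 and 133 FPKM in WT PBS (108 ± 22.3, n = 3) and 118, 88.9 and 55.8 FPKM in 6DKO PBS (87.7 ± 31.3, n = 3). With IL-33 it was at 132, 157 and 105 FPKM in WT (131 ± 25.8, n = 3) and 90.8, 81.1 and 92.1 FPKM in 6DKO (88.0 ± 6.03, n = 3). Its PBS and IL-33 libraries overlapped in both genotypes, and under IL-33 the 6DKO libraries were all below the WT libraries.

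Cd160 and Btla encode receptors for HVEM, the product of Tnfrsf14. Under PBS, Cd160 was listed at 0 in each WT library and was 0, 12.6 and 4.09 FPKM in 6DKO. Under IL-33 it was 5.60, 2.46 and 5.25 FPKM in WT (4.44 ± 1.72, n = 3) and 5.71, 4.83 and 5.57 FPKM in 6DKO (5.37 ± 0.475, n = 3). The highest Cd160 value of any library was in 6DKO PBS replicate 2, the library with NK cell markers, and treatments overlapped in 6DKO but not in WT. Btla levels under PBS were 0, 3.50 and 0.0911 FPKM for WT and 0, 0 and 4.41 FPKM for 6DKO. Its levels with IL-33 were 4.21, 1.40 and 0.889 FPKM in WT (2.16 ± 1.79, n = 3) and 4.94, 3.51 and 3.55 FPKM in 6DKO (4.002 ± 0.816, n = 3). Treatments overlapped in both genotypes for Btla, and the genotypes overlapped under both treatments. Among genes with a mean of 3 to 7 FPKM under IL-33, 10.5% were listed at 0 in at least 4 PBS libraries, as Cd160 was, and 19.1% in at least 3, as Btla was. Exons of Cd160 share bases with Pdzk1 on the opposite strand, so without strand its reads cannot be told from those of Pdzk1.

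**Figure D1:**
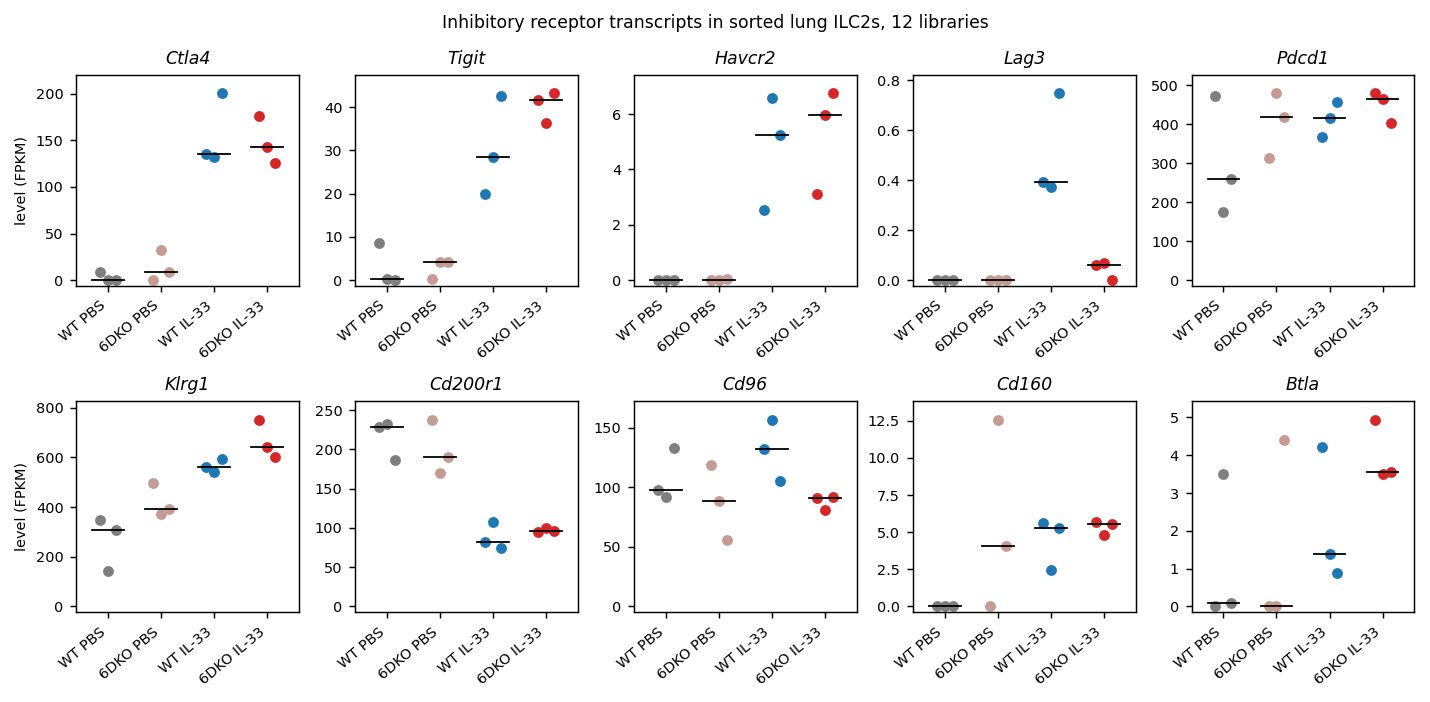
Level of each receptor transcript in FPKM (vertical axis, own linear scale for each gene) in WT PBS, 6DKO PBS, WT IL-33 and 6DKO IL-33 libraries, with 1 point for each library and a line at the group median. Ctla4, Tigit, Havcr2 and Klrg1 were higher, and Cd200r1 was lower, in all 6 IL-33 libraries than in any of the 6 PBS libraries.

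By mean level over the 6 PBS libraries the order was Pdcd1 (353 FPKM), Klrg1 (344 FPKM), Cd200r1 (208 FPKM), Cd96 (97.6 FPKM) and then the other receptors, which did not exceed 32.8 FPKM in any PBS library. Pdcd1 overlapped Klrg1, Klrg1 overlapped Cd200r1 and the low receptors overlapped in turn, whereas Cd200r1 and Cd96 did not overlap. In the 6DKO PBS libraries taken alone, Klrg1 (421 FPKM) stood above Pdcd1 (403 FPKM) with overlap, and Pdcd1 stood above Cd200r1 without overlap. Over the 6 IL-33 libraries the order was Klrg1 (616 FPKM), Pdcd1 (432 FPKM), Ctla4 (152 FPKM), Cd96 (109.6 FPKM), Cd200r1 (92.5 FPKM), Tigit (35.4 FPKM), Havcr2 (5.04 FPKM), Cd160 (4.90 FPKM), Btla (3.08 FPKM) and Lag3, which did not exceed 0.749 FPKM. Ctla4 overlapped Cd96, Cd96 overlapped Cd200r1, and Havcr2, Cd160 and Btla overlapped in turn, while the other neighbours were separate. In the 6DKO IL-33 libraries taken alone, Cd200r1 stood above Cd96 without overlap.

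The summed level of the 10 receptors was 900.0 ± 261 FPKM in WT PBS, 1135 ± 49.2 FPKM in 6DKO PBS, 1397 ± 88.3 FPKM in WT IL-33 and 1503 ± 137 FPKM in 6DKO IL-33 (mean ± SD, n = 3 each). It ranged from 645 to 1167 FPKM over the PBS libraries and from 1312 to 1649 FPKM over the IL-33 libraries, which did not overlap. Klrg1 made up 21.9% to 42.7% of it in the PBS libraries and 38.9% to 45.6% in the IL-33 libraries, Pdcd1 26.8% to 41.4% and 28.0% to 31.4%, and Cd96 5.18% to 14.95% and 5.47% to 11.3%, each with overlap. The share of Ctla4 ran from 0 to 2.83% over the PBS libraries and from 9.08% to 13.5% over the IL-33 libraries, and that of Tigit from 0 to 0.733% and from 1.53% to 3.13%. Cd200r1 fell from a mean share of 21.5% to 6.41%, and its lowest share under PBS, 14.7%, was above its highest under IL-33, 7.70%.

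Differences were tested with limma on log2(FPKM + 1), a scale on which the change of low genes is understated, and a gene is said to be called at a Benjamini-Hochberg adjusted p under 0.05 over all genes tested. Averaged over the genotypes, IL-33 called 4 of the 10 receptors higher, against 5.81% of all genes, and 1 lower, against 3.09%. The median log2 difference was 1.03 over the receptors and 0.16 over all genes tested, and quantile normalization moved the median of all genes to 0.02, so receptor differences are best read relative to that shift. In 5 receptors the 6 IL-33 and 6 PBS libraries did not overlap, against 6.43% of all genes. Of 79 markers of other cell types, a count that leaves out the B cell list, 4 were apart between the same libraries, H2-Ab1 and Trat1 higher and Cpa3 and Epcam lower under IL-33. Exact 2-sided permutation tests within the genotypes, whose 400 arrangements allow no p below 0.005, gave that smallest p of 0.005 for each of the 5 called receptors. The called receptors are those without overlap, for which this exact p is fixed, so it adds nothing to the separation.

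Ctla4 had the largest difference of the receptors, 5.30 on the log2 scale (SE 0.79, 95% interval 3.56 to 7.03, limma adjusted p 0.00152), and without 6DKO PBS replicate 2 it was 5.87 (adjusted p 0.000997). Leaving out 6DKO PBS replicate 1 gave the smallest value for Ctla4, 4.60. Tigit was higher by 3.72 (SE 0.59, 95% interval 2.43 to 5.01, limma adjusted p 0.00210), or 3.89 without 6DKO PBS replicate 2 (adjusted p 0.00453). For Havcr2 the difference was 2.52 (SE 0.31, 95% interval 1.85 to 3.19, limma adjusted p 0.000396), or 2.52 without that library (adjusted p 0.000858). Klrg1 rose by 0.93 (SE 0.20, 95% interval 0.50 to 1.35, limma adjusted p 0.0122), a ratio of means of 1.79, or by 0.88 without that library (adjusted p 0.0298). Cd200r1 fell by 1.16 (SE 0.13, limma adjusted p 0.000307), with means 2.24-fold lower under IL-33, and fell by 1.21 without that library (adjusted p 0.000457). Ctla4, Tigit and Havcr2 had PBS libraries at 0, so the sizes of their differences depend on the pseudocount, and with 0.1 in place of 1 they were 7.002, 5.03 and 5.50. These 5 calls held under each of 20 alternatives, with adjusted p of 0.000185 to 0.0111 for Ctla4, 0.000328 to 0.0120 for Tigit, 0.000133 to 0.00338 for Havcr2, 0.00215 to 0.0460 for Klrg1 and 0.000188 to 0.00371 for Cd200r1.

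The other 5 receptors were not called in the averaged comparison. Pdcd1 differed by 0.37 on the log2 scale (SE 0.21, 95% interval −0.08 to 0.82, limma adjusted p 0.327, exact p 0.17), but without WT PBS replicate 1, its highest WT PBS library, by 0.56 with a limma adjusted p of 0.0434 (0.0434 to 0.517 over the alternatives). Cd96 differed by 0.18 (SE 0.19, 95% interval −0.25 to 0.60, limma adjusted p 0.639, exact p 0.37). Cd160 differed by 1.51 (SE 0.54, limma adjusted p 0.117, exact p 0.035), and without 6DKO PBS replicate 2, the library with NK cell markers, by 1.94 with a limma adjusted p of 0.0187 (0.0187 to 0.232 over the alternatives). Btla differed by 1.13 (SE 0.55, limma adjusted p 0.251, exact p 0.09). Lag3 differed by 0.32 (SE 0.19, limma adjusted p 0.353, exact p 0.02), with a limma adjusted p of 0.0142 when genes of low level were not filtered (0.0142 to 0.626 over the alternatives). Without 6DKO PBS replicate 2 the differences were 0.44 for Pdcd1 (limma adjusted p 0.264), 0.20 for Cd96 (0.599), 0.92 for Btla (0.357) and 0.32 for Lag3 (0.175). Over all fits that left out 1 library, they ran from 0.20 to 0.56 for Pdcd1, from 0.03 to 0.30 for Cd96 and from 0.999 to 1.94 for Cd160. With a pseudocount of 0.1 the difference was 3.53 for Cd160 (adjusted p 0.0558), 2.84 for Btla (0.170) and 1.51 for Lag3 (0.0664).

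In WT alone IL-33 called 4 receptors higher, against 2.72% of all genes, and 1 lower, against 1.61%, with a median of 0.97 over the receptors and 0.16 over all genes. The log2 differences were 6.16 for Ctla4 (limma adjusted p 0.0101), 3.74 for Tigit (0.0266), 2.46 for Havcr2 (0.00885), 1.19 for Klrg1 (0.0330) and −1.30 for Cd200r1 (0.00296). Among these, Havcr2 and Cd200r1 kept their calls in all 15 alternatives for WT. Leaving out WT IL-33 replicate 3 ended the call of Ctla4 (adjusted p 0.0506, with 0.00124 to 0.0506 over the alternatives), and leaving out WT PBS replicate 1 moved its difference to 7.27. The call of Tigit ended without WT PBS replicate 2 (0.0740) or 3 (0.0699) and without WT IL-33 replicate 1 (0.0735), 2 (0.0921) or 3 (0.126), and with a pseudocount of 0.1 (0.0624), the replicate block (0.0595) or only the groups compared (0.110), while without WT PBS replicate 1 its difference was 4.78, and the adjusted p ran from 0.00455 to 0.126 over the alternatives. That of Klrg1 ended without WT IL-33 replicate 1 (0.110), 2 (0.0950) or 3 (0.127), and with no filter (0.0595), no prior trend (0.103) or only the groups compared (0.149), with 0.0200 to 0.149 over the alternatives, and its difference was 0.78 without WT PBS replicate 2. Pdcd1, at 0.56 with all libraries (adjusted p 0.363), was called without WT PBS replicate 1 (0.94, adjusted p 0.0455, and 0.0455 to 0.704 over the alternatives). The log2 difference was 2.39 for Cd160 (adjusted p 0.119), 0.75 for Btla (0.686), 0.58 for Lag3 (0.286) and 0.29 for Cd96 (0.657). Cd160 was called with only the groups compared (adjusted p 0.0200, and 0.0200 to 0.328 over the alternatives), and Lag3 with no filter (0.00686, and 0.00686 to 0.582). Leaving out 1 library moved the difference over 0.23 to 0.94 for Pdcd1, 0.32 to 1.46 for Btla and 0.15 to 0.45 for Cd96. With 0.1 in place of 1 it was 5.51 for Havcr2, 5.42 for Cd160, 2.18 for Btla and 2.54 for Lag3.

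In 6DKO alone 2 receptors were called higher, against 1.78% of all genes, and 1 lower, against 1.12%, with a median of 0.65 over the receptors and 0.14 over all genes. Tigit differed by 3.70 on the log2 scale (limma adjusted p 0.0374), Havcr2 by 2.58 (0.00957) and Cd200r1 by −1.02 (0.0165). The call of Havcr2 ended with array weights (2.49, adjusted p 0.0634, and 0.00393 to 0.0634 over the alternatives). The call of Tigit ended without 6DKO PBS replicate 1 (2.99, adjusted p 0.0902) and without 6DKO IL-33 replicate 1 (0.133), 2 (0.120) or 3 (0.140), and with a pseudocount of 0.1 (0.152), no filter (0.0608), the replicate block (0.0796) or only the groups compared (0.05005), with 0.0229 to 0.152 over the alternatives. That of Cd200r1 ended without 6DKO IL-33 replicate 1 (0.0661), 2 (0.0581) or 3 (0.0604), and with no prior trend (0.0741) or array weights (0.0618), with 0.0131 to 0.0741 over the alternatives. Ctla4 differed by 4.44 and was not called (adjusted p 0.0595), although its treatments did not overlap, and was called with array weights (adjusted p 0.0265) and without 6DKO PBS replicate 2 (5.59, adjusted p 0.0223, and 0.0223 to 0.202 over the alternatives). Without 6DKO PBS replicate 1 the difference of Ctla4 was 3.05. Without 6DKO PBS replicate 2 Tigit differed by 4.05 (adjusted p 0.0465), Havcr2 by 2.57 (0.0146), Cd200r1 by −1.12 (0.0134), Klrg1 by 0.58 (0.374), Btla by 1.09 (0.545), Cd160 by 1.49 (0.242), Pdcd1 by 0.31 (0.668), Cd96 by 0.11 (0.887) and Lag3 by 0.06 (0.907). Klrg1, also without overlap, differed by 0.67 (adjusted p 0.272), and the means of Tigit stood at a ratio of 14.2. Btla differed by 1.498 (adjusted p 0.395), Cd160 by 0.63 (0.759), Pdcd1 by 0.17 (0.835), Cd96 by 0.07 and Lag3 by 0.06. Over the fits without 1 library these ran from 1.09 to 2.31 for Btla, from −0.39 to 1.49 for Cd160, from 0.0023 to 0.31 for Pdcd1, from −0.22 to 0.31 for Cd96 and from 0.04 to 0.09 for Lag3. The pseudocount of 0.1 gave 5.49 for Havcr2, 3.51 for Btla, 1.64 for Cd160 and 0.48 for Lag3.

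**Figure D2:**
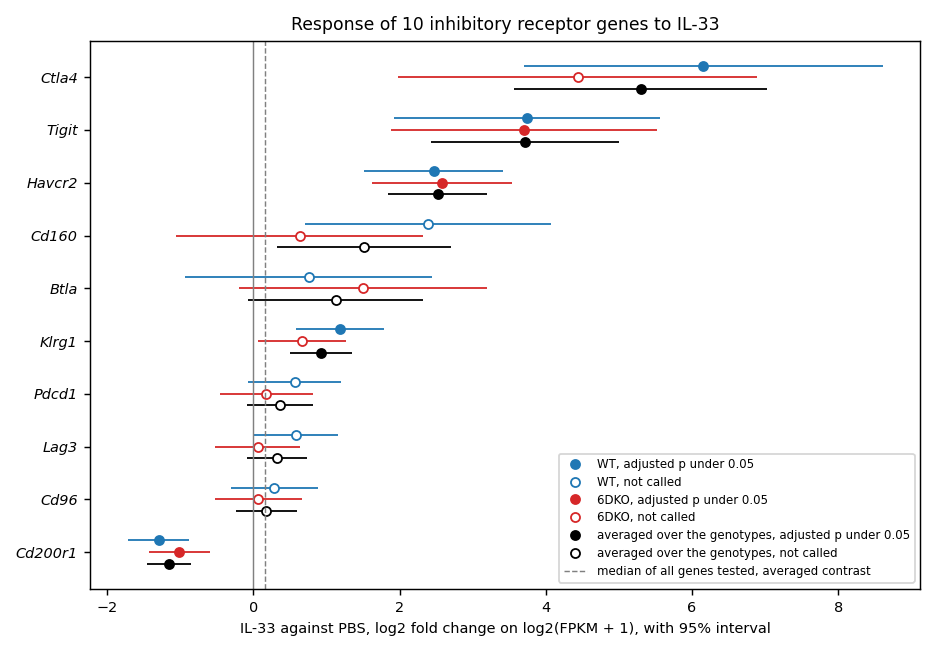
Difference between IL-33 and PBS of each receptor gene on the log2(FPKM + 1) scale (horizontal axis) in WT, in 6DKO and averaged over the genotypes, with 95% intervals and filled points where the adjusted p was under 0.05. In the averaged comparison Ctla4, Tigit, Havcr2 and Klrg1 lay above 0 and Cd200r1 below it, and the dashed line marks the median of all genes tested, 0.16.

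The difference in response between the genotypes was tested by the interaction, since a call in WT and none in 6DKO does not show one. Its exact test permuted the genotypes within each treatment, so the null of that test is no genotype difference under either treatment. The interaction called 0 receptors, against 0.0175% of all genes, 0 had an unadjusted limma p or an exact p under 0.05, against 5.60% and 4.29% of all genes, and the lowest adjusted p was 0.894. For Ctla4 the interaction was −1.72 on the log2 scale (SE 1.59, exact p 0.355), for Cd160 −1.75 (SE 1.09, exact p 0.3), for Klrg1 −0.52 (SE 0.39, exact p 0.435) and for Lag3 −0.52 (SE 0.38, exact p 0.1). For Cd200r1 it was 0.28 (SE 0.27, exact p 0.235). Without 6DKO PBS replicate 2 these were −0.57 for Ctla4, −0.89 for Cd160, −0.61 for Klrg1, −0.52 for Lag3 and 0.17 for Cd200r1. Over the fits that each left out 1 library the values ran from −3.10 to −0.57 for Ctla4, from −2.77 to −0.89 for Cd160, from −0.77 to −0.12 for Klrg1, from −0.58 to −0.405 for Lag3 and from 0.17 to 0.43 for Cd200r1. A pseudocount of 0.1 gave −2.81 for Ctla4, −3.77 for Cd160 and −2.06 for Lag3. The widths of these errors leave sizeable differences undetectable at 3 libraries a group.

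Between genotypes under IL-33, limma called 0 of the 10 receptors, against 0.00874% of all genes, each with an adjusted p of 1 and 0 with an unadjusted p under 0.05, against 1.84% of all genes. The groups did not overlap for 3 receptors, against 14.2% of all genes, and the exact test of 3 against 3 libraries cannot go below 0.10. These were Cd96, differing in 6DKO by −0.55 on the log2 scale (95% interval −1.15 to 0.04), with the WT mean 1.49-fold higher, Klrg1, differing by 0.23 (95% interval −0.38 to 0.83, and 0.14 to 0.30 in the fits without 1 library), and Lag3 at −0.52 (95% interval −1.10 to 0.06, and −2.06 with a pseudocount of 0.1). Under PBS limma again called 0 receptors, against 0.594% of all genes, the lowest adjusted p was 0.294, and 2 of 10 had an unadjusted p under 0.05, against 12.98% of all genes. One receptor, Klrg1, did not overlap between the genotypes under PBS, against 8.59% of all genes. Klrg1 was higher in 6DKO by 0.75 on the log2 scale (SE 0.28, limma unadjusted p 0.0193, exact p 0.1), by 0.83 without 6DKO PBS replicate 2, and by 0.34 without WT PBS replicate 2. Cd160 was higher by 2.04 (SE 0.77, limma unadjusted p 0.0219, exact p 0.4), by 1.17 without 6DKO PBS replicate 2 (adjusted p 0.416), and by 3.06 without 6DKO PBS replicate 1, where it was called (adjusted p 0.0238), or by 4.13 with a pseudocount of 0.1 (adjusted p 0.304). The medians over the receptors were 0.15 under IL-33 and 0.27 under PBS, beside medians over all genes of 0.01 and 0.00. The model shares 1 spread over the 4 groups, although replicates correlated less under PBS than under IL-33. With all groups in the model, 211 of 11444 genes had an unadjusted limma p under 0.05 under IL-33 and 1485 under PBS. With only the groups compared, these were 1054 and 521, so the unadjusted p of both genotype comparisons depend on the shared spread.

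Ligands of the receptors were followed as a list of 18 genes in the files, of which 17 were tested, since such ligands on the same cells can bind the receptors as well. In the comparison averaged over the genotypes, IL-33 called 4 of them higher and 0 lower, against 5.81% and 3.09% of all genes (6 and 2 at an unadjusted limma p under 0.05, against 15.4% and 7.21%), with a median log2 difference of 0.31 beside 0.16 over all genes. Cd80, a ligand of Ctla4, had lowest, median and highest levels of 0, 0 and 0.0921 FPKM over the PBS libraries and 0.745, 1.99 and 4.26 FPKM over the IL-33 libraries (log2 difference 1.58, limma adjusted p 0.00226, and 4.18 with a pseudocount of 0.1). The call of Cd80 ended with quantile normalization (1.06, adjusted p 0.0568, and 0.000507 to 0.0568 over the alternatives). Lgals3, a galectin that binds Lag3, was at 0, 26.0 and 48.3 FPKM under PBS and 76.6, 102 and 119 FPKM under IL-33 (2.76, adjusted p 0.0367). The class II genes, whose products Lag3 binds, rose too, H2-Ab1 from 1.01, 49.9 and 86.8 FPKM to 152, 309 and 486 FPKM (3.12, adjusted p 0.0158). H2-Aa went from 0, 21.97 and 96.4 FPKM to 67.6, 253 and 324 FPKM (4.02, adjusted p 0.00977), with 6DKO PBS replicate 1 above the lowest IL-33 libraries. The most abundant ligand genes that were not called were Lgals9, with means of 282 FPKM under PBS and 362 FPKM under IL-33 (0.39, adjusted p 0.106), and Cd274, which encodes PD-L1, with means of 24.7 and 30.0 FPKM (0.43, adjusted p 0.555, and 0.19 to 0.71 in the fits without 1 library). Pvr, which encodes CD155, was not called either. It was at 0, 4.67 and 6.28 FPKM under PBS and 0, 0.255 and 1.39 FPKM under IL-33 (−1.63, limma adjusted p 0.0547, exact p 0.02). The call of Lgals3 ended without 6DKO PBS replicate 1 or 3 and without any 1 of the 6 IL-33 libraries, at adjusted p of 0.0580 to 0.0910, and Lgals9 was called without 6DKO PBS replicate 1 (adjusted p 0.0218). The call of Lgals3 also ended with a pseudocount of 0.1 (0.108), no filter (0.0674), no prior trend (0.0582) and the replicate block (0.0549). Over the alternatives the adjusted p ran from 0.00487 to 0.108 for Lgals3 and from 0.0218 to 0.271 for Lgals9.

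Of 8 activating partners of the receptors, 1 was called higher and 3 lower, against 5.81% and 3.09% of all genes, with a median of −0.12 beside 0.16 over all genes. Tnfrsf4, which encodes the costimulator OX40, had lowest, median and highest levels of 0, 0.658 and 28.1 FPKM under PBS and 49.8, 87.8 and 184 FPKM under IL-33 (log2 difference 4.82, limma adjusted p 0.00118). Tnfrsf18, which encodes the costimulator GITR, was the most abundant of the list and went from 1425, 1823 and 2276 FPKM to 424, 588 and 804 FPKM (−1.61, adjusted p 3.96e-05). Icos went from 268, 385 and 518 FPKM to 241, 256 and 277 FPKM (−0.53, adjusted p 0.0358), and Cd27 from 15.8, 31.1 and 57.2 FPKM to 11.1, 15.7 and 17.0 FPKM (−1.09, adjusted p 0.0477). The treatments did not overlap for Tnfrsf4 and Tnfrsf18 and overlapped for Icos and Cd27. Neither of the last named held its call in most of the leave-out fits: Icos lost it without any 1 library other than WT PBS replicate 2 and 6DKO PBS replicate 2 (adjusted p 0.0548 to 0.0860), and Cd27 without any 1 library other than 6DKO PBS replicate 3 (0.0551 to 0.117). Icos also lost it with no prior trend (0.137), and Cd27 with no filter (0.0580), no prior trend (0.0599) and array weights (0.0682). Over the alternatives the adjusted p ran from 0.00958 to 0.137 for Icos and from 0.00314 to 0.117 for Cd27. Cd226, the activating rival of Tigit for CD155, had means of 25.8 FPKM under PBS and 38.4 FPKM under IL-33 and was not called (0.53, adjusted p 0.182), nor was the costimulator Tnfrsf9, at 51.4 and 35.5 FPKM (−0.43, adjusted p 0.447, and −0.63 to −0.23 in the fits without 1 library).

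Among 17 genes for signalling proteins that act with inhibitory receptors, 1 was called higher and 1 lower, against 5.81% and 3.09% of all genes, with a median of 0.12 beside 0.16 over all genes. Dgka, for a kinase that removes diacylglycerol, had lowest, median and highest levels of 55.7, 63.4 and 71.5 FPKM under PBS and 75.01, 93.4 and 119 FPKM under IL-33, without overlap (log2 difference 0.56, limma adjusted p 0.0252). Dok2, for an adaptor, went from 226, 294 and 460 FPKM to 129, 170 and 336 FPKM with overlap (−0.75, adjusted p 0.0346). The call of Dgka ended without WT IL-33 replicate 1 or 2 or 6DKO IL-33 replicate 1 or 3 (adjusted p 0.0547 to 0.0715), and with no prior trend (0.0787), array weights (0.0682) and the replicate block (0.0538), with 0.0144 to 0.0787 over the alternatives. That of Dok2 ended without WT PBS replicate 2, 6DKO PBS replicate 1 or 3, any 1 WT IL-33 library, or 6DKO IL-33 replicate 1 or 3 (0.0548 to 0.0930), and with no filter (0.0532), no prior trend (0.0919), array weights (0.0878) and the replicate block (0.0624), with 0.0134 to 0.0930 over the alternatives. Ptpn6, for the phosphatase SHP-1, had means of 37.9 FPKM under PBS and 61.6 FPKM under IL-33 and was not called (0.67, adjusted p 0.0694), nor was Inpp5d, for the phosphatase SHIP-1, at 53.0 and 39.2 FPKM (−0.42, adjusted p 0.146).

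A list of 28 other inhibitory receptors and regulators gave 1 called higher and 2 lower, against 5.81% and 3.09% of all genes, with a median of −0.02 beside 0.16 over all genes. Lair1, a receptor for collagen, was listed at 0 in all 6 PBS libraries and had lowest, median and highest levels of 1.95, 5.59 and 12.6 FPKM under IL-33 (log2 difference 2.65, limma adjusted p 0.000212, and 5.70 with a pseudocount of 0.1). Il10ra, for the IL-10 receptor, went from 134, 203 and 251 FPKM to 67.9, 71.8 and 103 FPKM (−1.30, adjusted p 0.00107). Cd300a, for a receptor of phospholipids, went from 10.4, 13.3 and 15.3 FPKM to 5.31, 6.45 and 7.12 FPKM (−0.95, adjusted p 0.0347). None of these 3 overlapped between the treatments, and Cd300a lost its call without any 1 of the 6 IL-33 libraries (adjusted p 0.0686 to 0.0875), and with array weights (0.0538) and the replicate block (0.0699), with 0.00852 to 0.0875 over the alternatives. The most abundant that were not called were Lilrb4a, with means of 73.4 FPKM under PBS and 129 FPKM under IL-33 (0.80, adjusted p 0.0556), and Tgfbr2, for a TGF-β receptor, at 63.6 and 68.4 FPKM (0.16, adjusted p 0.644, and 0.01 to 0.25 in the fits without 1 library). Lilrb4a was called without 6DKO PBS replicate 2 (adjusted p 0.0440), WT IL-33 replicate 1 (0.0277) or 6DKO IL-33 replicate 2 (0.0465), with 0.0277 to 0.142 over the alternatives.

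Transcription factors linked to exhaustion in T cells, where checkpoint receptors accumulate, made a list of 17 genes, of which 4 were called higher and 4 lower, against 5.81% and 3.09% of all genes, with a median of −0.04 beside 0.16 over all genes. Tox2 had lowest, median and highest levels of 0, 0 and 1.94 FPKM under PBS and 6.13, 14.3 and 22.7 FPKM under IL-33 (log2 difference 3.40, limma adjusted p 0.000461, and 5.72 with a pseudocount of 0.1). Batf went from 1.19, 36.7 and 73.0 FPKM to 161, 223 and 264 FPKM (2.89, adjusted p 0.0104), and its partner Irf4 from 1.20, 9.63 and 11.9 FPKM to 27.0, 45.9 and 59.0 FPKM (2.66, adjusted p 0.000989). Tcf7 went from 10.2, 19.8 and 30.5 FPKM to 48.7, 63.9 and 85.0 FPKM (1.74, adjusted p 0.000618). The 3 Nr4a nuclear receptor genes, which respond to acute activation, were all lower. Nr4a1 went from 1685, 2114 and 2437 FPKM to 732, 814 and 1085 FPKM (−1.33, adjusted p 3.68e-05). Nr4a2 went from 148, 186 and 238 FPKM to 27.7, 57.8 and 84.2 FPKM (−1.80, adjusted p 0.000375), and Nr4a3 from 324, 385 and 394 FPKM to 114, 175 and 193 FPKM (−1.21, adjusted p 0.000396). Bach2, a repressor, went from 1.72, 3.06 and 5.89 FPKM to 0.362, 0.769 and 1.48 FPKM (−1.22, adjusted p 0.0358). None of the 8 overlapped between treatments, and Bach2 lost its call without WT IL-33 replicate 2 or 3 or any 1 of the 6DKO IL-33 libraries (adjusted p 0.0594 to 0.101), and with a pseudocount of 0.1 (0.0569), array weights (0.0776) and the replicate block (0.0658), with 0.0133 to 0.101 over the alternatives. Tox had means of 25.4 FPKM under PBS and 43.3 FPKM under IL-33 (0.82, adjusted p 0.0634) and was called without WT PBS replicate 3 (0.0210, and 0.0210 to 0.155 over the alternatives), and Nfatc1 had means of 25.8 and 25.2 FPKM (−0.03, adjusted p 0.959, and −0.12 to 0.10 in the fits without 1 library).

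Within the genotypes, IL-33 called 1 ligand higher in WT and 1 in 6DKO, 1 activating partner higher and 1 lower in WT, 2 higher and 1 lower in 6DKO, and 0 signalling genes in either, where 4 in WT and 2 in 6DKO of 17 had an unadjusted limma p under 0.05, against 17.7% and 15.3% of all genes. It called 1 other inhibitory receptor higher and 1 lower in each genotype, and 3 exhaustion-linked regulators higher and 3 lower in each. Of all genes, 2.72% were called higher and 1.61% lower in WT, and 1.78% and 1.12% in 6DKO. Of the 87 genes tested from these 5 lists, limma called 0 between the genotypes under IL-33, 0 under PBS and 0 in the interaction, where 5, 14 and 6 had an unadjusted p under 0.05, against 1.84%, 12.98% and 5.60% of all genes. The exact test gave 0, 0 and 5 at a p under 0.05, where 3 against 3 libraries cannot go below 0.10, and in the interaction 4.29% of all genes had such a p.

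For each called receptor, the 3 genes nearest in profile over the 12 libraries were found by the root mean square difference of log2(FPKM + 1) after centring each gene. Nearest to Ctla4 were H2-DMa (1.11), a gene of class II peptide loading, Tigit (1.11) and Myo1f (1.31). H2-DMa ran from 0 to 11.99 FPKM under PBS and from 27.3 to 59.8 FPKM under IL-33. Nearest to Tigit were Kpna2 (0.760), Myo1f (0.799) and Il18r1 (0.808), which encodes a chain of the IL-18 receptor. Havcr2 was nearest to the histone gene Hist1h2ak (0.299), Sdcbp2 (0.313) and Pkib (0.361), of which the first was listed at 0 in the PBS libraries and at 3.00 to 5.22 FPKM under IL-33. Klrg1 was nearest to Fkbp1a (0.222), Zdhhc20 (0.236) and Tox (0.237). Cd200r1 was nearest to Csf2 (0.161), which encodes GM-CSF and ran from 2341 to 3466 FPKM under PBS and from 1041 to 1416 FPKM under IL-33, to Ier2 (0.173) and to Aff4 (0.182).

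On GRCm38, 4 of the 10 receptor genes lie on chromosome 16, namely Tigit (43648867 to 43664146, minus strand), Cd200r1 (44765736 to 44794978, plus), Btla (45224315 to 45257670, plus) and Cd96 (46035657 to 46120251, minus). These neighbours differed in response, with Tigit called higher, Cd200r1 called lower and the others not called. Chromosome 1 holds Ctla4 (60887000 to 60915832, plus) and Pdcd1 (94038305 to 94052553, minus), and chromosome 6 holds Klrg1 (122270596 to 122282882, minus) and Lag3 (124904361 to 124911705, minus). Havcr2 is on chromosome 11 (46454935 to 46481255, plus) and Cd160 on chromosome 3 (96798763 to 96829351, minus).

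Promoters from RefSeq, 250 bases before to 50 after a transcript start on GRCm38.p6, were found for 7 of the 10 receptors, with 8 promoters among them, and not for Lag3, Klrg1 and Cd200r1. Both strands were searched for the letters TGANTCA as the motif of the AP-1 factors and for TGTGGT as that of the RUNX factors. The letters AGATAA stood for the motif bound by members of the family of GATA factors, and TTCNNNGAA for that of the STAT factors, while NF-kB was searched by its name. Of all 32851 promoters, 7.81% held the AP-1 letters, 11.2% GATA, 16.8% RUNX, 8.30% STAT and 4.51% NF-kB. RUNX letters were in the promoters of 5 receptors, Cd160, Havcr2, Tigit, Btla and Cd96, STAT letters in those of Cd160 and Cd96, AP-1 letters in Havcr2 and GATA letters in Tigit, and none of the letters in Ctla4 and Pdcd1. A match describes these letters only. The promoters of the 3 receptors with the largest rises are shown 5′ to 3′ on the strand of the gene, with matches in capitals, for Ctla4 at chr1:60908775-60909074 (plus strand), Havcr2 at chr11:46454681-46454980 (plus strand) and Tigit at chr16:43664135-43664434 (minus strand).
Ctla4: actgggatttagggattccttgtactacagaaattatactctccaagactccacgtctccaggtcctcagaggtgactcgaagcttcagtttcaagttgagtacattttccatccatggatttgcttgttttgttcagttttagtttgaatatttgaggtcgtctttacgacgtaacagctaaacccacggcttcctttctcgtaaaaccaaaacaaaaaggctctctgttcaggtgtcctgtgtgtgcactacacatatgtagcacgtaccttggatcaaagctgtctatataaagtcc
Havcr2: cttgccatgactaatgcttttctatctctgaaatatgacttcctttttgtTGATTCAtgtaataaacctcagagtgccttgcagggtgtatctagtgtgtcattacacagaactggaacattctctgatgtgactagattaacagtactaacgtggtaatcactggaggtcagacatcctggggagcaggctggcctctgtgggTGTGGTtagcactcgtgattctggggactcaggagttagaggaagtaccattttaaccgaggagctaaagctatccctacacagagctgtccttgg
Tigit: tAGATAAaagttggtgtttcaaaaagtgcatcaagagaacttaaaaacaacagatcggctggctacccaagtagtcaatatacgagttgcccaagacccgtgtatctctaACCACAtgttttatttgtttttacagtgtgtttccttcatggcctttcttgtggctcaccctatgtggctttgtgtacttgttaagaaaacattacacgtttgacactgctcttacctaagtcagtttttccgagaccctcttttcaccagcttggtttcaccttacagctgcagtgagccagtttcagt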

How the data were processed

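The values were FPKM as the authors deposited them, separately for each of the 12 libraries, and were joined by gene symbol. Per the submitters' processing notes, reads were handled with TopHat2 2.1.1, Bowtie2 and Cuffdiff 2.2.1 on mm10, and the methods give 75-base reads and name other tool versions. The gene annotation behind the values is not given in the sources, and 0 sample columns were unused. Genes averaging 0.5 FPKM or more, and receptors and listed genes above 0 in any library, gave 11444 tested genes. The values were analysed as log2(FPKM + 1), pseudocount 1, in limma 3.58.1 (R 4.3.3) with 1 model of the 4 groups, a trended eBayes prior and Benjamini-Hochberg adjustment over all tested genes. Exact 2-sided permutation tests had 20 arrangements for 3 against 3 libraries and 400 for the averaged response, with treatments permuted within genotypes. For the interaction, genotypes were permuted within treatments, also with 400 arrangements. The permutation tests used Python 3.11.15, numpy 2.4.6 and scipy 1.17.1, with tables in pandas 2.3.3 and plots in matplotlib 3.10.9. The code was tested on simulated data. Relative depth came from 1727 genes whose values below 3 FPKM moved in whole reads.

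Members and lists were chosen with earlier results of these data known, and the promoter motifs after the data were seen. Named genes were all receptors, every gene of 5 pathway lists called in the averaged comparison, the 2 most abundant others of each list and the 3 genes nearest in profile to each called receptor. Pvr of the ligand list was added after its value was seen. Marker lists covered ILC2s, T cells, regulatory T cells, NK cells and ILC1s, B cells (the list as a whole is not reported here), macrophages, dendritic cells, eosinophils, mast cells and basophils, neutrophils, epithelial, endothelial and mesenchymal cells. Hey1 and Il13 among the ILC2 markers, and the other single markers, were picked after their values were seen. Positions came from GENCODE vM21 and promoters from RefSeq. A planned search of protein sequences for inhibitory tyrosine motifs was not done, as no protein table was at hand. Alternatives were leaving the low genes in, raising the filter to 2 FPKM, adding 0.1 before the logarithm, quantile normalization, median ratio scaling, no prior trend, array weights, a replicate block, only the groups compared, and leaving out each library. For pathway genes they were added after the values were seen.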

Additional observations from a re-analysis of the deposited data

How the results depend on the processing

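The receptor calls of the averaged IL-33 comparison held under all 20 alternatives, and 6 receptors were called in some, with Pdcd1, Cd160 or Lag3 added. Leaving out single libraries gave 2 to 6 called receptors in WT, 1 to 4 in 6DKO, 5 to 6 averaged, 0 to 1 between genotypes under PBS and 0 in the other comparisons. Fits without an IL-33 library and fits without a PBS library each held 1 library fewer, and all shared 1 spread over the groups. Replicates correlated at r of 0.934 to 0.951 under IL-33 and 0.762 to 0.819 under PBS. In the averaged comparison, 673 to 729 of all genes were called without 1 IL-33 library and 1029 to 1253 without 1 PBS library, beside 1019 with all libraries. The cause was not tested. In WT the call of Tigit also ended with a pseudocount of 0.1, the block or only the groups compared, and that of Klrg1 with no filter, no trend or only the groups compared. In 6DKO, Tigit lost its call with a pseudocount of 0.1, no filter, the block or only the groups compared, and Cd200r1 with no trend. Array weights in 6DKO ended the calls of Havcr2 (adjusted p 0.0634, with 0.00393 to 0.0634 over the alternatives) and Cd200r1 and added Ctla4 (adjusted p 0.0265). Fitting only the groups compared called Cd160 in WT (adjusted p 0.0200, with 0.0200 to 0.328 over the alternatives), and leaving low genes in called Lag3 (0.00686, with 0.00686 to 0.582 over the alternatives). Of 21 pathway genes called, 13 were called under every alternative, and Cd80 lost its call only with quantile normalization (adjusted p 0.0568, with 0.000507 to 0.0568 over the alternatives).

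The directions of some differences changed, and the cause was not tested. When single libraries were left out, the response in 6DKO ran from −0.39 to 1.49 for Cd160 and from −0.22 to 0.31 for Cd96, and the averaged response of Nfatc1 from −0.12 to 0.10. The genotype difference under IL-33 ran from −0.20 to 0.13 for Ctla4, from −0.18 to 0.41 for Havcr2 and from −0.0154 to 0.45 for Cd160, and array weights gave −0.0096 for Havcr2. Under PBS it ran from −0.0815 to 1.55 for Tigit and from −0.76 to 0.75 for Btla, which was −0.20 with a pseudocount of 0.1 and −0.20 with quantile normalization. The interaction ran from −1.08 to 0.54 for Tigit, from −0.20 to 0.39 for Havcr2 and from −0.51 to 0.0288 for Cd96. It was 0.0346 for Tigit with quantile normalization, and for Havcr2 −0.0221 with a pseudocount of 0.1, −0.0303 with quantile normalization and −0.0404 with array weights.

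The labels give replicate numbers and do not say whether these pair libraries between groups. Over 18 same-numbered pairs the deviations from group means correlated at r of −0.047 to 0.045, and 0 pairs were over 0.1. Differently numbered pairs ran from −0.073 to 0.053. A weak pairing may go unseen in such correlations, as the PBS libraries vary much among themselves. With the number as a block, 4 receptors were called in WT, 2 in 6DKO (Tigit left out in both), 5 averaged and 0 in the other comparisons, and all genes called were 367 in WT, 221 in 6DKO, 819 averaged, 1 between genotypes under IL-33, 15 under PBS and 1 in the interaction.

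Over all genes, 495 were called in WT, 332 in 6DKO, 1019 averaged, 1 between genotypes under IL-33, 68 under PBS and 2 in the interaction. Leaving out single libraries gave 210 to 604, 137 to 496, 673 (without WT IL-33 replicate 3) to 1253, 0 to 3, 78 to 201 and 0 to 28. Array weights gave 210 in 6DKO, 57 between genotypes under IL-33 and 1 under PBS. The count under PBS was 33 with no filter, 42 with quantile normalization and 1 with only the groups compared, and the interaction gave 7 without a trend, 5 with a pseudocount of 0.1 and 3 with no filter. Lag3 had no more than 11 reads in a library.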
